A study of Mus musculus with 81 samples.

Results

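Receptors, an integrin chain and a transcription factor that guide thymocytes into, through and out of the thymus were followed across a mouse model of thymic lymphoma. The set held 7 genes, chosen by symbol from the 51826 genes of the deposited count table: the chemokine receptors Ccr4, Ccr7, Ccr9 and Cxcr4, the sphingosine-1-phosphate receptor S1pr1, the transcription factor Klf2 and the integrin subunit Itga4. All 7 were found once and all 7 passed the filter on low counts in every comparison.

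Thymocytes move through the thymus along gradients made by its stroma. Cxcr4 reads Cxcl12 and holds immature cells in the cortex, Ccr9 reads Ccl25 from cortical epithelium, and Ccr4 and Ccr7 draw positively selected cells into the medulla towards Ccl17, Ccl22, Ccl19 and Ccl21a. Mature thymocytes then raise Klf2, which switches on S1pr1, and S1pr1 lets them leave towards the sphingosine-1-phosphate of the blood; Cd69 pulls S1pr1 off the surface and so delays exit. Itga4 pairs with Itgb1 or Itgb7 to bind Vcam1, fibronectin or Madcam1 on vessels and stroma.

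RNA was sequenced from frozen thymic tissue of 40 mice in 81 libraries. All mice were C57BL/6 x 129S4Sv/Jae and carried Plk4(Col1a1), rtTA(Rosa) and centrin-GFP(Rosa), so that doxycycline switches on the centriole kinase Plk4; the labels do not restrict this to a cell type. As controls, 8 p53+/+ mice left untreated gave a normal thymus, and a p53+/- mouse gave 1 more. Lymphomas came from 10 untreated p53-/- mice (23 libraries), from 9 p53-/- mice given doxycycline for 2 weeks beginning at 30 days of age (18 libraries, called treated), and from 12 p53+/- mice treated the same way (31 libraries). In 13 of the 31 tumours 4 or 5 regions were biopsied separately; these biopsies were summed so that the mouse is the replicate, and levels are CPM, which scales the counts of each library or mouse to the same total. The labels give no age at collection, and no treated normal thymus was analysed here, so tumour, age, p53 genotype and treatment cannot be told apart in a comparison with the normal thymuses. In whole tissue, fewer cells of a type and less RNA per cell cannot be told apart either.

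Library totals ran from 1.03 M to 26.87 M counts, and 2 biopsies of the treated p53-/- mouse 857 were under 2 M. Summed CPM of 8 T-lineage markers lay between 2271 and 6577 in 30 of the 31 lymphomas. The untreated p53-/- tumour of mouse 881 had 145.2 CPM for these markers (Cd3e at 1.77 CPM) and 2835 CPM for 5 B-lineage markers (Cd79a at 846.4 CPM), so its label of thymic lymphoma is kept without the name of a T-cell tumour. Normal mouse 387 also stood apart, with 834.9 CPM of T-lineage, 1030.0 of B-lineage and 7602 of fat markers. By label 4 of 8 normal p53+/+, 9 of 10 untreated p53-/-, 4 of 9 treated p53-/- and 3 of 12 treated p53+/- mice were male. Sex was thus uneven over the groups. Labelled sex and the sex-linked transcripts Xist and Ddx3y disagreed in mice 869, 870 and 328. Values without mice 387 and 881 are given where a call changes.

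Of the 7 genes, Ccr7, S1pr1, Klf2 and Itga4 were lower in treated p53-/- lymphoma than in normal thymus, with log2 changes of -2.24 to -2.78. The same 4 were lower in treated p53+/- lymphoma, at -1.57 to -2.06. In untreated p53-/- lymphoma 1 of the 7, Ccr7, passed the test, at -1.95. Ccr4, Ccr9 and Cxcr4 passed it in none of these 3 comparisons. Genes were called at an adjusted p under 0.05 from edgeR's quasi-likelihood test with the labelled sex as a covariate, with Benjamini-Hochberg adjustment over 17843 genes. By this rule 26.7% of all genes were lower in treated p53-/- lymphoma, 25.3% in treated p53+/- lymphoma and 17.5% in untreated p53-/- lymphoma. In either direction 52.1%, 50.9% and 40.7% were called, and higher 25.4%, 25.6% and 23.2%. The 3 comparisons share the same 8 normal thymuses and are therefore set side by side without being counted as independent. Without normal mouse 387 the number of the 7 genes called in treated p53+/- lymphoma fell from 4 to 2, Ccr7 and Klf2, and it stayed at 4 and 1 in the treated and untreated p53-/- tumours. Without mouse 881 the numbers stayed at 1, 4 and 4.

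**Figure D1:**
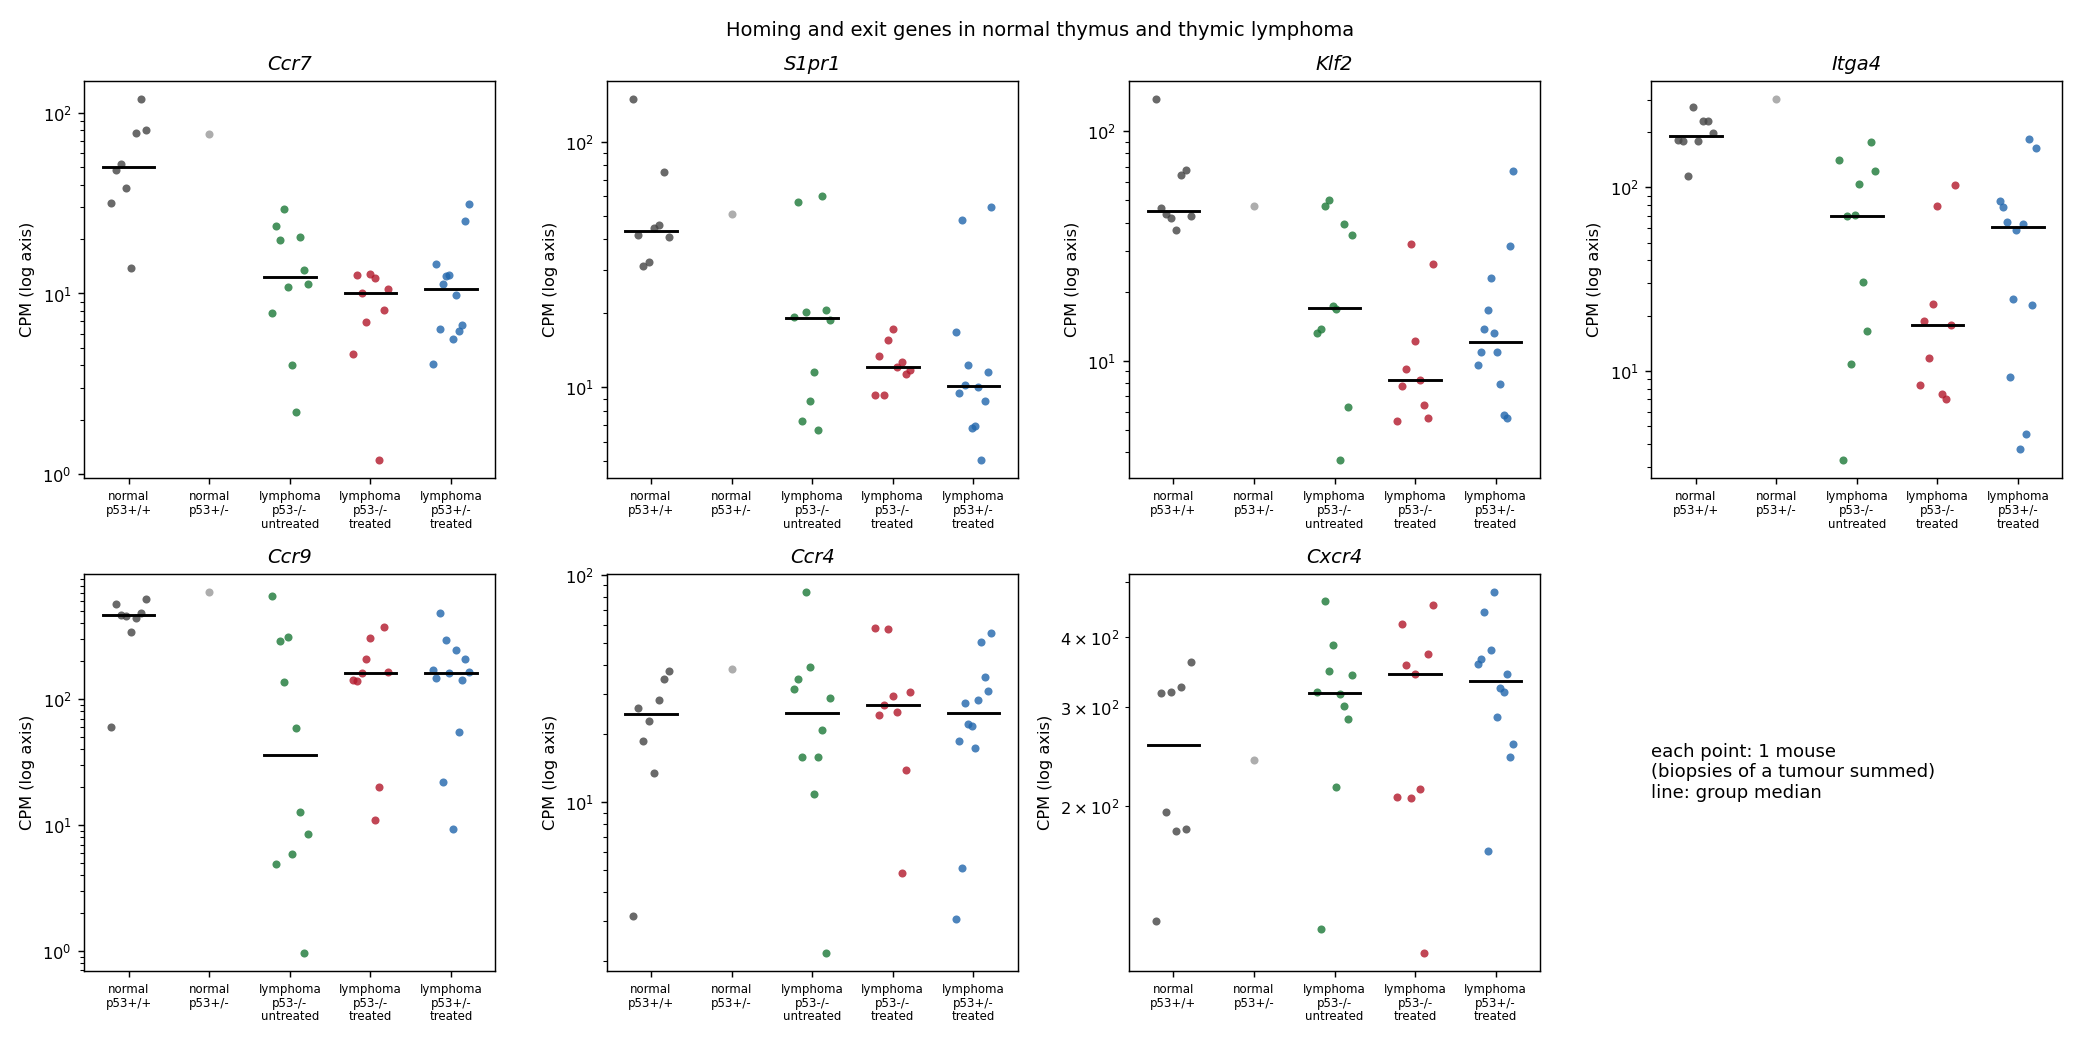
CPM of each gene on a log axis, 1 point per mouse, by group, with the group median as a line. For Ccr7, S1pr1, Klf2 and Itga4 all 9 treated p53-/- tumours lie below the lowest normal p53+/+ thymus; for Cxcr4 and Ccr4 the groups overlap along most of their range.

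Klf2 is the zinc-finger factor that drives the exit programme of mature T cells. It lies on chromosome 8 (72319033 to 72321656, plus strand, GRCm38) and has 1 annotated transcript. Normal p53+/+ thymuses held between 37.2 and 138.1 CPM of Klf2, with a median of 45.1. The highest value was that of mouse 387, and the other 7 lay at or under 68.0. Klf2 ran from 3.68 to 49.95 CPM with a median of 17.04 in untreated p53-/- tumours, where 7 of 10 mice were below every normal thymus. It ran from 5.44 to 32.3 CPM with a median of 8.24 in treated p53-/- tumours, all 9 of them below every normal thymus. In treated p53+/- tumours it ran from 5.62 to 67.3 CPM with a median of 12.1, and 11 of 12 mice were below; the exception was mouse 908. The fitted log2 change was -2.29 ± 0.52 (SE) in treated p53-/- (edgeR adjusted p = 0.000386) and -1.74 ± 0.46 in treated p53+/- tumours (edgeR adjusted p = 0.0021). In untreated p53-/- tumours it was -1.17 ± 0.53 (edgeR adjusted p = 0.0766). Without mouse 387 the 3 values were -1.68, -1.16 and -0.73, in the same order, with the first 2 still called.

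The sequence before the start of Klf2 is shown because Klf2 is the regulator of the set and S1pr1 is a known target of it. RefSeq's table (GRCm38.p6) held a promoter for 5 of the 7 genes, all but Ccr7 and S1pr1. The 221 bases at chr8:72318812-72319032, plus strand, end at the base before the annotated gene. Capitals mark every match on either strand to 6 letter patterns: the GC box GGGCGG, the CACCC box CACCC, the forkhead pattern TGTTTAC, the MEF2 pattern, the E box CAGNTG and the TATA box TATAAA.
Klf2: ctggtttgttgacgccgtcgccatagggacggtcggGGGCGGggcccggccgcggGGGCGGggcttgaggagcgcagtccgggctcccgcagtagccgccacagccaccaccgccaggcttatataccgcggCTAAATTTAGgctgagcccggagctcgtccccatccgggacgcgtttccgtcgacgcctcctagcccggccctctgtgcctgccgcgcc
Klf2 has 2 GC boxes, a pattern held by 28.7% of the 32851 promoters in the same 221-base window, and 1 MEF2 pattern, CTAAATTTAG, held by 2.86%. The forkhead, CACCC, E-box and TATA letters were not in this window. Its GC content was 71.5%, against a median of 52% over all promoters. A match of letters is a description of the sequence and not evidence of binding.

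S1pr1, the exit receptor itself, is annotated on the minus strand of chromosome 3 (115710433 to 115715072). Normal thymuses held 31.1 to 149.0 CPM of S1pr1 with a median of 43.1, and mouse 387 was again the highest, followed by 74.9. The median was 19.1 CPM (6.69 to 59.8) in untreated p53-/-, 12.2 CPM (9.28 to 17.3) in treated p53-/- and 10.2 CPM (5.05 to 54.1) in treated p53+/- tumours. Below every normal thymus were 8 of 10, 9 of 9 and 10 of 12 mice. The 4 tumours inside the normal range were those of untreated p53-/- mice 120 and 643 and of treated p53+/- mice 266 and 908. The log2 change was -2.24 ± 0.52 in treated p53-/- tumours (edgeR adjusted p = 0.000455), -1.77 ± 0.46 in treated p53+/- (edgeR adjusted p = 0.00173) and -1.13 ± 0.53 in untreated p53-/- (edgeR adjusted p = 0.0851). Without mouse 387 these became -1.55, -1.06 and -0.58, and the p53+/- value no longer passed (edgeR adjusted p = 0.0524).

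Ccr7, the receptor that takes selected thymocytes into the medulla, was the member called in all 3 comparisons. It is annotated on the minus strand of chromosome 11 (99144196 to 99155077). Normal thymuses held 13.8 to 119.4 CPM with a median of 50.2. The lowest was mouse 818, and the other 7 held at least 31.6 CPM, more than any of the 31 tumours, whose highest value was 31.2 CPM in mouse 908. Medians were 12.4 CPM (2.21 to 29.6) in untreated p53-/-, 10.02 (1.19 to 12.9) in treated p53-/- and 10.6 (4.06 to 31.2) in treated p53+/- tumours. Below every normal thymus were 6 of 10, 9 of 9 and 9 of 12 mice, and the remaining tumours overlapped mouse 818 alone. The log2 changes were -1.95 ± 0.45 (edgeR adjusted p = 0.000737), -2.63 ± 0.45 (edgeR adjusted p = 1e-05) and -2.06 ± 0.40 (edgeR adjusted p = 5.91e-05). Over the 16 alternative fits of each, every value stayed between -2.76 and -1.76 and past the threshold.

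Cells other than thymocytes also express these 3 genes, so markers of those cells are given beside them. Of all genes 17.5% were called lower in untreated p53-/-, 26.7% in treated p53-/- and 25.3% in treated p53+/- tumours. Endothelium uses Klf2 and S1pr1: summed CPM of 4 endothelial markers was 149.7 to 450.1 in normal thymus, highest in mouse 387, 26.2 to 280.1 in untreated p53-/-, 68.3 to 241.0 in treated p53-/- and 76.5 to 232.9 in treated p53+/- tumours, and 2, 2 and 3 of the 4 were called lower. B cells use Ccr7, S1pr1 and Klf2: summed CPM of 5 B-lineage markers was 69.6 to 1030.0 in normal thymus, against 5.83 to 53.1 in treated p53-/- and 2.57 to 85.3 in treated p53+/- tumours, where all 5 were called lower. In untreated p53-/- tumours the B-lineage sum ran from 1.22 CPM to the 2835 of mouse 881 with a median of 11.04, against 107.5 in normal thymus. It was below every normal thymus in 8 of 10 mice and high in mice 881 and 98 (416.6 CPM), and none of the 5 was called. Dendritic cells use Ccr7: 4 dendritic markers summed to 24.4 to 82.2 CPM in normal thymus and to 2.59 to 35.2, 4.12 to 24.7 and 5.11 to 49.6 in the tumours, and 3 of the 4 were called lower in each comparison. None of these 13 markers was at 0 in any mouse. Their part in the result was not tested.

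Genes that mark mature thymocytes were lower in part. Of 10 such genes 3 were called lower in untreated p53-/-, 7 in treated p53-/- and 5 in treated p53+/- tumours, beside 17.5%, 26.7% and 25.3% of all genes, and none was called higher. The list's median log2 change was -0.43, -2.04 and -1.71, against 0.08, -0.04 and -0.00067 over all genes tested. Dapl1 was lower in all 3 comparisons, at -2.03, -2.93 and -2.19. Gimap3, a GTPase of lymphocyte survival, was at -1.13, -4.09 and -3.40, of which the latter 2 were called.

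The sphingosine-1-phosphate axis around S1pr1 held mostly lower genes. Of 9 genes 6, 8 and 7 were called lower in untreated p53-/-, then treated p53-/-, then treated p53+/- tumours, beside 17.5%, 26.7% and 25.3% of all genes, with list medians of -1.35, -1.76 and -1.40. Cd69, the antagonist of S1pr1, was lower at -2.55, -3.75 and -3.04. Sphk1, a kinase that makes the lipid, was lower at -1.81, -2.19 and -1.65, and Sphk2 at -0.34, -0.69 and -0.61. S1pr2, another receptor of the lipid, was the one gene called higher, at 0.81 in treated p53-/- tumours (edgeR adjusted p = 0.0412). Among 8 relatives and regulators of Klf2, 3, 4 and 4 were called lower, beside the same 17.5%, 26.7% and 25.3% of all genes, with list medians of -0.43, -0.65 and -0.40. Klf4 was lower at -2.04, -2.35 and -1.59 and Klf6 at -1.69, -2.27 and -1.84. Foxo3 was called lower in both treated groups, at -0.64 and -0.54, and Klf10 was called higher in treated p53+/- tumours at 0.51 (edgeR adjusted p = 0.049).

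**Figure D2:**
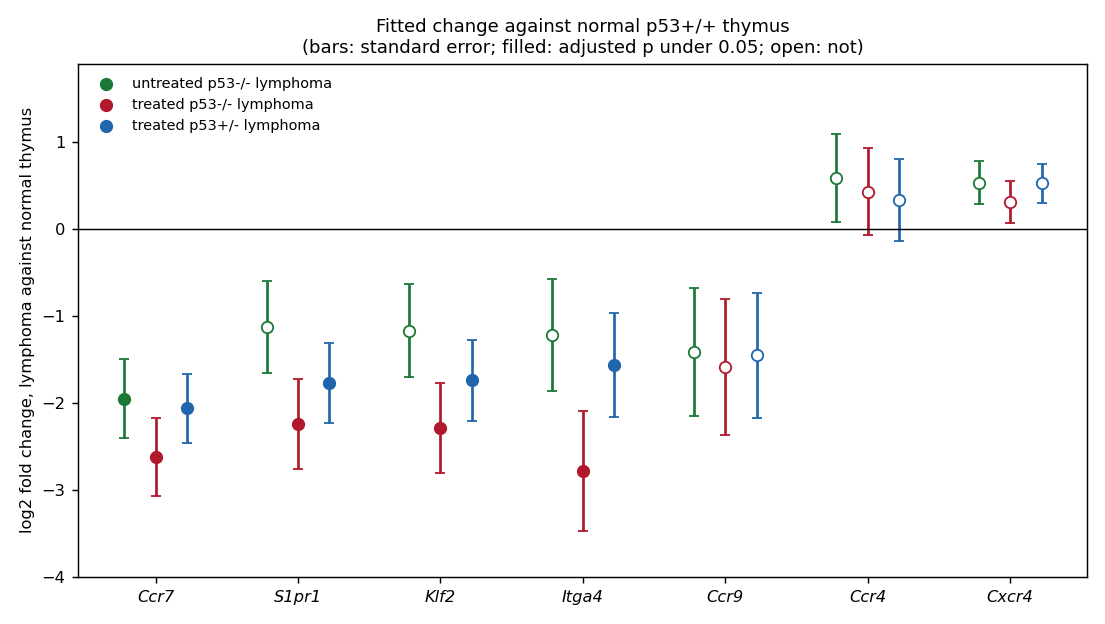
Fitted log2 fold change of each gene in the 3 lymphoma groups against normal p53+/+ thymus, with standard errors; filled points passed the edgeR threshold. Ccr7 is filled in all 3 groups, S1pr1, Klf2 and Itga4 in both treated groups, and Ccr9, Ccr4 and Cxcr4 in none.

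Itga4, the alpha-4 integrin chain, was lower in both treated groups. It lies on chromosome 2 (79255426 to 79333123, plus strand) with 5 annotated transcripts, and it overlaps Cerkl on the opposite strand; whether the counting used strand is not given in the sources used here. Normal thymuses held 114.8 to 274.4 CPM with a median of 189.8. Medians were 70.0 CPM (3.26 to 176.3) in untreated p53-/-, 17.7 (7.05 to 102.8) in treated p53-/- and 60.9 (3.75 to 182.5) in treated p53+/- tumours. Below every normal thymus were 7 of 10, 9 of 9 and 10 of 12 mice, so that overlap was limited to a few tumours of the other 2 groups. Within the untreated p53-/- group the highest tumour, that of mouse 881, held 54 times the CPM of the lowest, that of mouse 120. The log2 change was -2.78 ± 0.69 in treated p53-/- (edgeR adjusted p = 0.00109), -1.57 ± 0.60 in treated p53+/- (edgeR adjusted p = 0.0286) and -1.22 ± 0.64 in untreated p53-/- tumours (edgeR adjusted p = 0.127), or -1.47 without mouse 881 (edgeR adjusted p = 0.0684). The p53+/- call was lost without mouse 387 (-1.44, edgeR adjusted p = 0.0597) and without the filter on low counts (-1.55, edgeR adjusted p = 0.0645).

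In treated p53-/- tumours Ccr7, S1pr1, Klf2 and Itga4 thus had no overlap with the normal thymuses, which was true in that direction of 9.3% of all genes tested. In untreated p53-/- and treated p53+/- tumours none of the 7 was without overlap, against 4.92% and 6.56% of genes. No member lay above every normal thymus in all mice of a group, which was true of 2.33% of genes in untreated p53-/-, 7.33% in treated p53-/- and 5.37% in treated p53+/- tumours.

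The 250 bases before Itga4 at chr2:79255176-79255425, plus strand, are shown as a description of the reference sequence, which is the same for every tumour.
Itga4: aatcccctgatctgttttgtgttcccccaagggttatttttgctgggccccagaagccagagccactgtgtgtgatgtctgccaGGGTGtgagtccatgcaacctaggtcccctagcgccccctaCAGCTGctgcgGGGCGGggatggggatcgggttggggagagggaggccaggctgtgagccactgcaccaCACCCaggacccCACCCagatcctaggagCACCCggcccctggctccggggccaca
They hold 4 CACCC boxes, the letters that KLF factors are known to bind and that 52% of promoters hold at least once in this window, 1 GC box (32.7%) and 1 E box (44.8%). The forkhead, MEF2 and TATA letters were not in this window. Binding of any factor was not tested.

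The partner chains of Itga4 were not called in any of the 3 comparisons. Itgb1 was at -0.56, -0.43 and -0.51 and Itgb7 at -0.29, -0.65 and -0.65, in the order untreated p53-/-, then treated p53-/-, then treated p53+/-. Of 11 integrins and integrin ligands 2, 4 and 4 were called lower and none higher, with list medians of -0.52, -0.82 and -0.65; the share of all genes called lower was 17.5%, 26.7% and 25.3%, so that the untreated p53-/- count is at the background and the others are not far from it. Vcam1, the endothelial and stromal ligand of Itga4, was lower in untreated (-1.27, edgeR adjusted p = 0.00409) and treated p53-/- tumours (-1.12, edgeR adjusted p = 0.00732) and was at -0.60 in treated p53+/- tumours (edgeR adjusted p = 0.12); it was singled out after its values were seen. Itgb2, the beta-2 chain of leukocyte integrins, was lower in all 3, at -0.59, -0.82 and -0.84. Itga5, the fibronectin receptor chain, was called lower in treated p53-/- (-1.31) and treated p53+/- tumours (-1.52), and Fn1, fibronectin, in the latter (-1.60).

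Ccr9, the Ccl25 receptor of cortical thymocytes, fell short of the threshold in all 3 comparisons although medians were far apart. It is annotated on chromosome 9 (123678439 to 123784330, plus strand); its annotated span overlaps genes on both strands, so part of its counts could belong to neighbours. Normal thymuses held 343.0 to 628.3 CPM apart from mouse 387, at 60.6. The median was 35.9 CPM in untreated p53-/-, 161.1 in treated p53-/- and 162.8 in treated p53+/- tumours, against 462.7 in normal thymus. Untreated p53-/- tumours covered the whole range, from 0.96 CPM in mouse 881 through 4.88, 5.91, 8.56 and 12.7 in mice 120, 562, 899 and 643 to 661.3 in mouse 98, above every p53+/+ thymus. Treated p53-/- tumours ran from 10.9 to 372.1 CPM and treated p53+/- tumours from 9.35 to 486.1. All 3 tumour groups therefore overlapped the normal range. The log2 changes were -1.42 ± 0.74, -1.59 ± 0.78 and -1.45 ± 0.72 (edgeR adjusted p = 0.121, 0.0847 and 0.0901). Called lower were, under voom over all biopsies, the untreated p53-/- (-3.03) and treated p53+/- tumours (-1.91), and under DESeq2 (-1.59) and the fit of 2 groups alone (-1.45) the treated p53-/- tumours.

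Cxcr4, the Cxcl12 receptor, was not called in any group. It is annotated on the minus strand of chromosome 1 (128588199 to 128592293). Normal thymuses held 124.9 to 360.6 CPM with a median of 256.7, and medians were 317.5 (120.5 to 463.2), 343.5 (109.4 to 455.4) and 333.6 (166.1 to 481.0) in untreated p53-/-, then treated p53-/-, then treated p53+/- tumours. Above every normal thymus were 2 of 10, 3 of 9 and 4 of 12 mice. Mice 120 and 857 lay below every normal thymus, and the rest fell within the normal range. The log2 changes were 0.53 ± 0.25, 0.31 ± 0.24 and 0.52 ± 0.23 (edgeR adjusted p = 0.0821, 0.277 and 0.0536). The p53+/- value passed in 4 of the 16 alternatives, at 0.54 to 0.68.

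Ccr4, the receptor for Ccl17 and Ccl22, had nearly the same median in all groups. It lies on the minus strand of chromosome 9 (114490316 to 114504916). Normal thymuses held 3.14 to 37.7 CPM with a median of 24.5, and the tumour medians were 24.7, 26.9 and 24.7. The log2 changes were 0.59 ± 0.51, 0.43 ± 0.50 and 0.33 ± 0.47 (edgeR adjusted p = 0.367, 0.484 and 0.578). Single tumours were far from the middle: 84.4 CPM in untreated p53-/- mouse 202, and 2.17, 3.06 and 4.85 in mice 881, 24 and 857.

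RefSeq promoter windows of Ccr9 and Cxcr4 are set side by side. As a ratio of highest to lowest tumour, these receptors had the widest and the narrowest range of the set over the 31 tumours (0.96 to 661.3 and 109.4 to 481.0 CPM). The windows are reference sequences, the same for every tumour. The Ccr9 window is chr9:123766961-123767168, plus strand, which lies at the gene start of RefSeq's table, inside the longer annotated span given above, and the Cxcr4 window chr1:128592300-128592549, minus strand.
Ccr9: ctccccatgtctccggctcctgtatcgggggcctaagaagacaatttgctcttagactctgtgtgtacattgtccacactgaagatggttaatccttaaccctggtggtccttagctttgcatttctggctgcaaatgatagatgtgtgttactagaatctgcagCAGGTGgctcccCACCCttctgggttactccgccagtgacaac
Cxcr4: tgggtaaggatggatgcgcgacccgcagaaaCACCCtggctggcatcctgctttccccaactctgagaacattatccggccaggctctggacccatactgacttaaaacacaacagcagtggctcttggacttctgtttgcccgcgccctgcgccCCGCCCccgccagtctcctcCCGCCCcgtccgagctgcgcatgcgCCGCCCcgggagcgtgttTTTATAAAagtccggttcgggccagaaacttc
The 208 bases of Ccr9 hold 1 CACCC box (45.9% of promoters in this window) and 1 E box (39.3%), with 50% GC and 3 CpG dinucleotides. The 250 bases of Cxcr4 hold 3 GC boxes (32.7%), 1 CACCC box (52%) and a TATA box (12.4%) that matches on both strands in overlapping letters, with 61.2% GC and 19 CpG dinucleotides.

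Most ligands of the 4 chemokine receptors were lower in the tumours. Of 6 ligands 4 were called lower in untreated p53-/-, 5 in treated p53-/- and 4 in treated p53+/- tumours, beside 17.5%, 26.7% and 25.3% of all genes, with list medians of -2.53, -3.16 and -2.79. Ccl25, the Ccr9 ligand, had a median of 326.0 CPM in normal thymus and 9.98, 10.9 and 10.02 in the tumours; the highest tumour held 19.4 CPM and the lowest normal thymus, mouse 387, 24.7. Its log2 change was -4.96 ± 0.32, -4.80 ± 0.32 and -4.81 ± 0.28 (edgeR adjusted p = 7.26e-14, 2.91e-13 and 5.43e-15). Cxcl12, the Cxcr4 ligand, went from a median of 223.1 to 13.1, 11.9 and 20.4 CPM, and no tumour reached the lowest normal thymus (157.5). Its log2 changes were -3.68, -3.91 and -3.50. Ccl21a was lower at -2.39, -2.40 and -2.23 and Ccl22 at -2.67, -4.27 and -3.36. Ccl19 was called in treated p53-/- tumours alone (-2.13), and Ccl17 in none (-1.56, -1.93 and 0.24).

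Markers of some cells that can make these ligands were lower too, and those of fibroblasts went both ways. Summed CPM of 7 thymic epithelial markers was 90.2 to 2061 in normal thymus and at most 355.8, 168.9 and 140.6 in the 3 tumour groups, and 4, 6 and 5 of the 7 were called lower. Of all genes 17.5%, 26.7% and 25.3% were called lower, which also stands beside the counts that follow. Foxn1 and Psmb11 were at 0 in at least 1 tumour of each group. The lowest normal value for the markers, as for Ccl25, Ccl21a and Ccl22, was that of mouse 387. Of 5 fibroblast markers, cells that can make Cxcl12, 1 was called lower in each comparison (Dcn, at -2.26, -2.44 and -2.12) and 2, 1 and 1 were called higher, with Pdgfrb at 2.45, 2.06 and 2.32 and list medians of 1.27, 0.74 and 0.74. Their summed CPM was 190.1 to 2310.0 in normal thymus, then 103.8 to 1301, 218.4 to 977.7 and 197.7 to 2328 in the tumours. Of all genes 23.2%, 25.4% and 25.6% were called higher. The fibroblast counts of the treated groups are therefore near the background in both directions. Dendritic cells, a source of Ccl17 and Ccl22, had 3 of 4 markers called lower in each comparison. Fat markers differed as well: 4 of them summed to 780.9 to 7602 CPM in the p53+/+ thymuses and to at most 94.6, 146.5 and 187.6 in the tumours, and all 4 were called lower in each comparison. The part of tissue makeup in the ligand result was not tested.

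**Figure D3:**
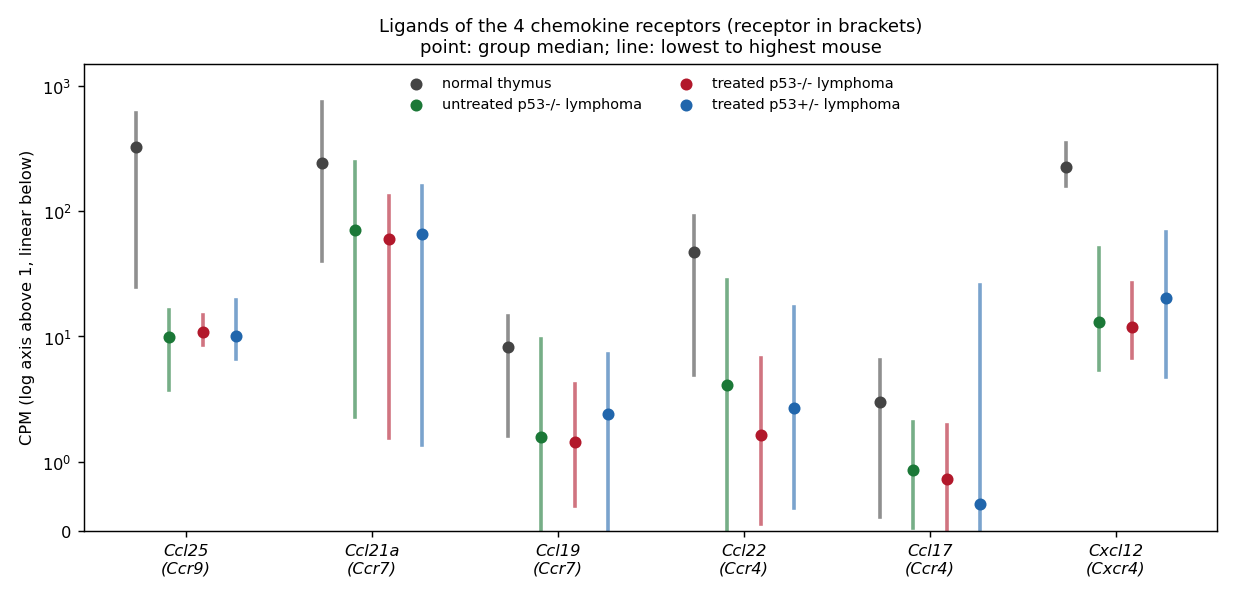
CPM of the 6 ligands by group, as group median (point) and lowest to highest mouse (line); the axis is logarithmic above 1 and linear below. Ccl25 and Cxcl12 are without overlap between the normal thymuses and the 31 tumours, and the other 4 ligands overlap.

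Of 12 other chemokine and guidance receptors, 2, 5 and 6 were called lower and none higher, beside 17.5%, 26.7% and 25.3% of all genes called lower, so that the untreated p53-/- count is near the background. Their summed CPM lay above every normal thymus (at most 252.1) in untreated p53-/- mice 202 (1169) and 120 (550.9). They had list medians of 0.26, -1.35 and -2.03; the 1st of these has the opposite sign to the 2 calls made there. Ackr4, a scavenger of Ccl19, Ccl21 and Ccl25, was lower at -4.13, -4.18 and -4.40. Cxcr5 was called in both treated groups (-3.84 and -3.77), as was Gpr183 (-2.97 and -2.07), an oxysterol receptor. Which cells of the tissue held the transcripts of these receptors was not tested. Genes that carry the receptor signal to the cytoskeleton were mostly not called: of 14, 1, 2 and 2 were called lower and 1 was called higher in each comparison. Both counts lie below the share of all genes, of which 23.2%, 25.4% and 25.6% were called higher. The gene called higher was Gnai3, an inhibitory G-protein subunit, at 0.68, 0.58 and 0.89, whereas Gnai2 was called lower in both treated groups at -0.32 and -0.36. Plxnd1, a semaphorin receptor that guides thymocytes to the medulla, was lower at -1.69, -1.84 and -2.18.

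Between the lymphoma groups none of the 7 genes was called in any of the 3 comparisons, and none of the 16389 genes tested was (0%). At an unadjusted edgeR p under 0.05 there were 1917 genes between treated and untreated p53-/- tumours, 864 between treated p53+/- and treated p53-/- and 1037 between treated p53+/- and untreated p53-/- tumours. DESeq2 called 76, 12 and 3 genes there and voom 39, 1 and 1. The largest difference among the 7 was that of Itga4 in treated against untreated p53-/- tumours, at -1.64 ± 0.80 on the log2 scale (unadjusted edgeR p = 0.0484, adjusted p = 0.425). S1pr1 was at -0.97 ± 0.54, Klf2 at -0.93 ± 0.61 and Ccr7 at -0.57 ± 0.48 in the same comparison. Between treated p53+/- and treated p53-/- tumours Itga4 was at 1.24 ± 0.68 and the others between -0.10 and 0.58. A p that misses the threshold does not show that these groups were alike.

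Per kilobase of annotated exon, the order of levels in normal thymus was led by Cxcr4, with a median of 142.0 CPM per kb and a lowest mouse (69.1) above the highest for Ccr9 (61.2). Ccr9 followed at 45.1, Ccr7 at 25.4, Klf2 at 24.4, S1pr1 at 14.2, Itga4 at 13.6 and Ccr4 at 7.91, and each of these neighbours overlapped the next in range. In treated p53-/- tumours the order was Cxcr4 at 190.0, Ccr9 at 15.7, Ccr4 at 8.69, Ccr7 at 5.07, Klf2 at 4.46, S1pr1 at 3.99 and Itga4 at 1.27. Cxcr4 again lay clear of the next gene, whose highest mouse reached 36.3. Exon lengths join all annotated transcripts, which lowers the values of Ccr9 and Itga4, with their long alternative forms.

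The share of the variation that lay between tumours, as opposed to between biopsies of 1 tumour, was highest for Ccr9, Itga4 and Ccr4. Over 54 biopsies of 13 tumours, with group means removed, 92.7% of the variance of log2 CPM lay between tumours for Ccr9 (jackknife SE over tumours 4.4), 87.1% for Itga4 (7.0) and 86.4% for Ccr4 (4.0). For Klf2 it was 74.4% (10.4), for S1pr1 64.2% (28.1) and for Ccr7 64.0% (11.3), beside a median of 67.3% over 18601 genes. For Cxcr4 the share of 71.9% rested on mouse 857, whose 4 biopsies lay between 106.1 and 112.0 CPM while no other biopsy was under 201.4. Without that tumour the Cxcr4 share was 28.2%, and without mouse 908 that of S1pr1 was 36.7%. These shares describe the tumours sampled and were not tested against each other.

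**Figure D4:**
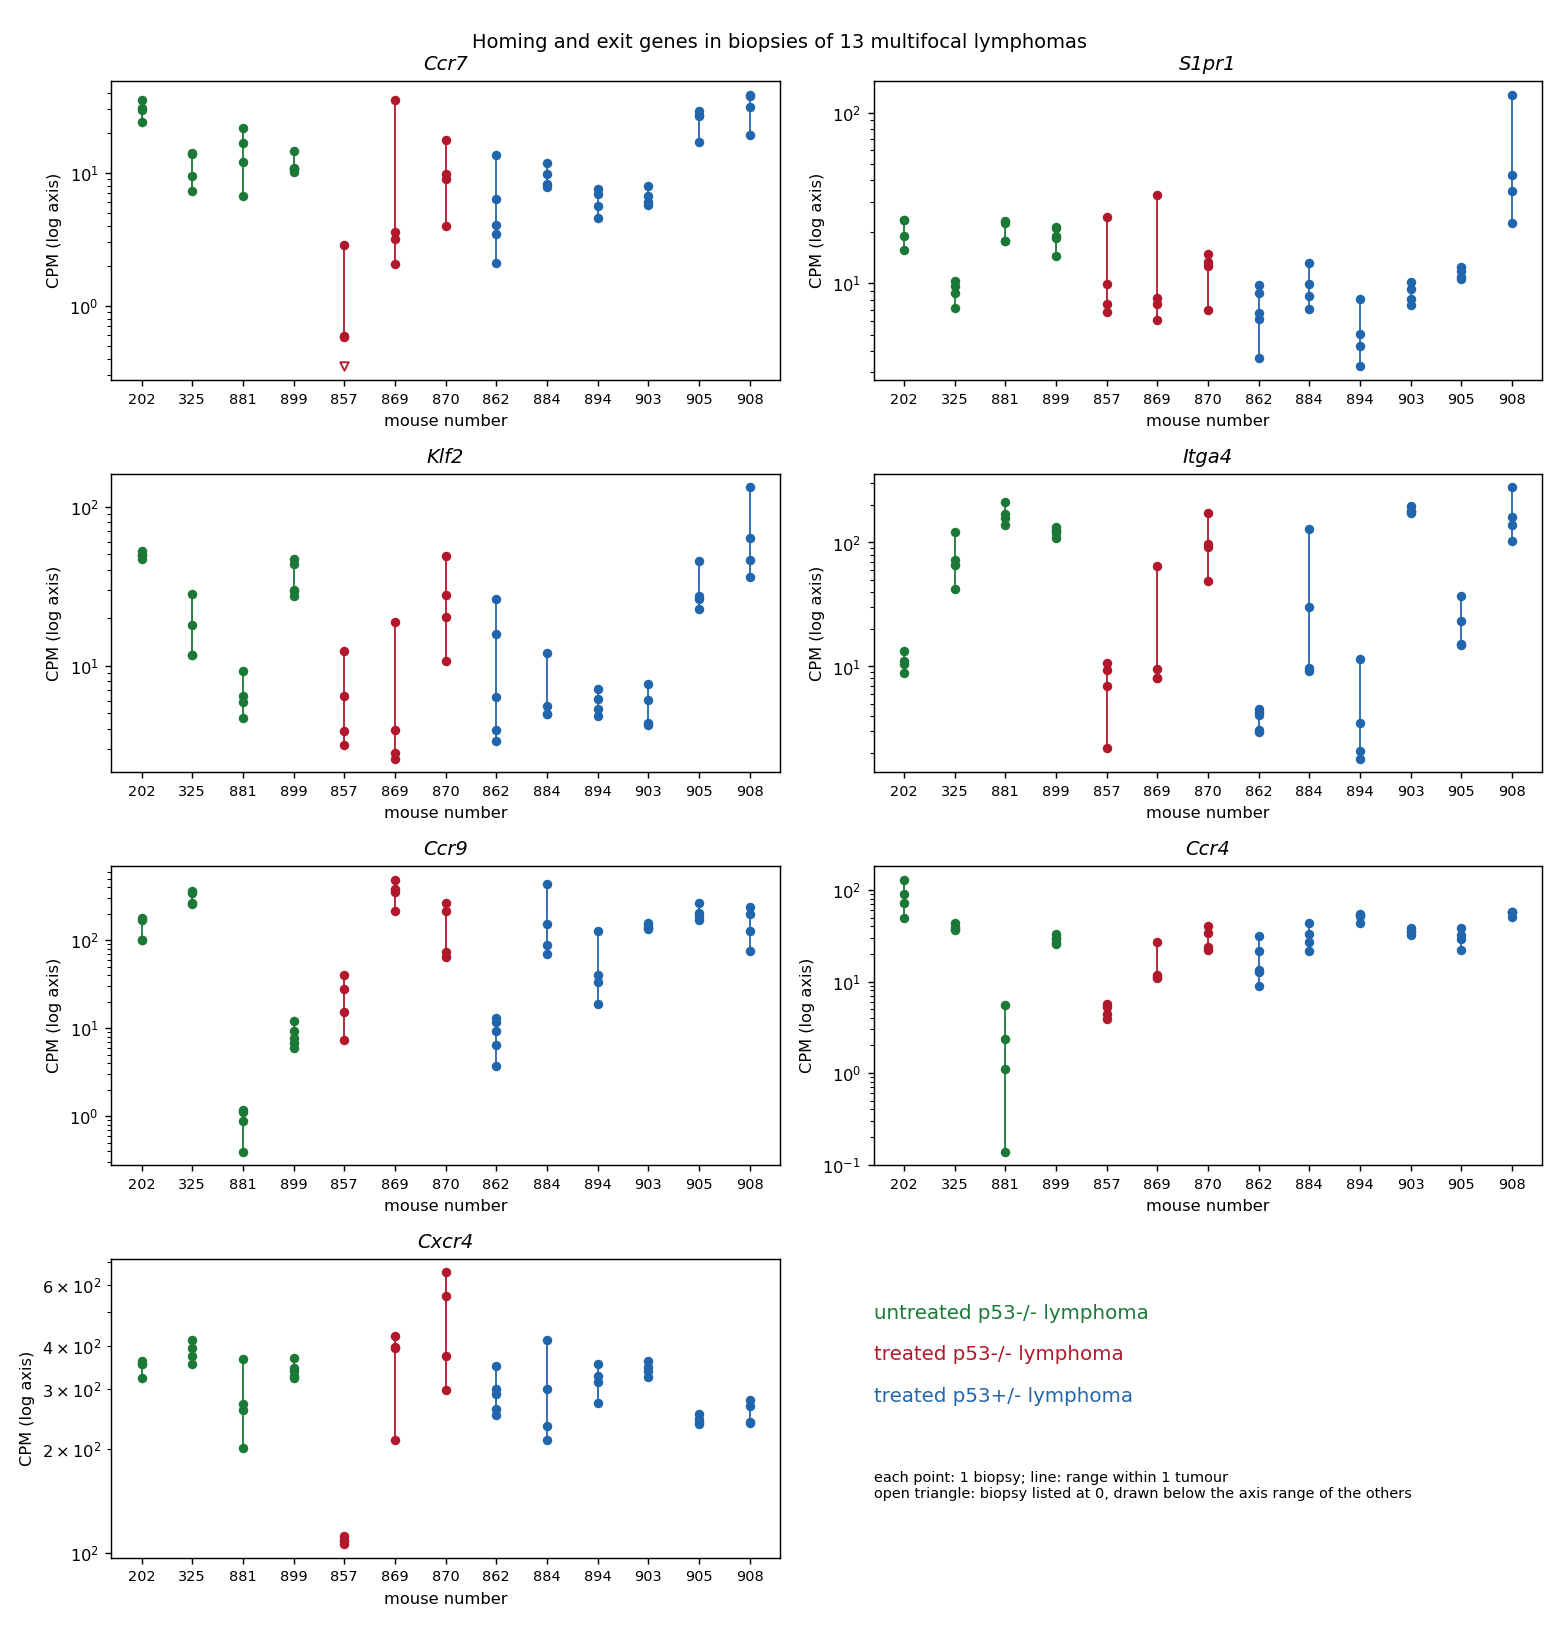
CPM of each gene in each biopsy of the 13 multifocal tumours on a log axis, joined within a tumour and coloured by group. Ccr9 differs between tumours by orders of magnitude, with lines short against that range, while Ccr7 and Klf2 have lines as long as the gaps between many tumours.

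Some of the widest ranges within a tumour were set by single biopsies. Biopsy 3 of treated p53-/- mouse 869 held 35.1 CPM of Ccr7 against 2.07, 3.61 and 3.18 in the other biopsies, a 16.9-fold range. The same biopsy held 64.6 CPM of Itga4 against 8.02 to 9.53, 18.9 of Klf2 against 2.59 to 3.93 and 32.9 of S1pr1 against 6.06 to 8.24. It was lower than the others in Ccr9 (217.5 against 351.8 to 487.3) and Cxcr4 (213.0 against 393.5 to 424.9). The 4 genes lower in tumours were thus high in this biopsy, and Cxcr4 and Ccr9 low. Markers of other thymic cells stood apart in it too: thymic epithelial markers summed to 259.8 CPM against 1.96 to 3.93, mature thymocyte markers to 377.5 against 97.0 to 113.9, and B-lineage markers to 27.9 against 1.21 to 1.96. Their part in these values was not tested. Without this biopsy the number of the 7 genes called stayed at 1, 4 and 4 against normal thymus.

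Mouse 908, a treated p53+/- animal, also had 1 biopsy apart from the rest. Its biopsy 9 held 127.3 CPM of S1pr1 against 22.6, 34.6 and 42.9, and 132.5 of Klf2 against 35.9, 46.1 and 63.1, while its Ccr7 was close to that of biopsy 5 (38.6 and 37.5). B-lineage markers summed to 164.4 CPM in it against 22.02 to 76.7, fat markers to 429.2 against 55.1 to 189.5, and thymic epithelial markers to 9.75 against 69.9 to 131.2.

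In other tumours the genes moved apart. The 4 biopsies of treated p53+/- mouse 884 held 128.9, 9.71, 30.4 and 9.19 CPM of Itga4 (biopsies 2, 5, 6 and 8), a 14-fold range, and Ccr9 followed at 435.3, 70.1, 151.6 and 89.1. S1pr1 lay between 7.02 and 13.2 CPM in them. In treated p53+/- mouse 862 Klf2 ranged 7.8-fold, from 3.33 to 26.1 CPM, and Ccr7 6.5-fold, while Itga4 was low throughout at 2.94 to 4.53. In treated p53-/- mouse 870 biopsies 1 and 3 held 555.0 and 651.9 CPM of Cxcr4 and 73.7 and 64.4 of Ccr9, against 372.7 and 296.3 of Cxcr4 and 215.9 and 265.7 of Ccr9 in biopsies 5 and 7. All 4 biopsies of treated p53+/- mouse 903 were alike in 2 genes, with Itga4 between 173.8 and 197.9 CPM and Ccr9 between 134.5 and 156.9. In mouse 857, Ccr7 had 0 counts in the biopsy of 1.03 M counts, which allows up to 2.91 CPM and covers counting error only.

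Over the 31 lymphoma mice 4 of the 21 pairs of the 7 genes were correlated at an adjusted p under 0.05 (permutation tests with 100000 resamples). How many pairs of other genes reach such values is not given here, so this count is not shown to be particular to these genes. The strongest pair was Ccr7 with Klf2, with Pearson's r = 0.64 (permutation p = 8e-05, adjusted p = 0.00168) and Spearman's rho = 0.53 (permutation p = 0.00226, adjusted p = 0.0475). Leaving out the 2 mice farthest from the median of Ccr7 gave r = 0.61, and within the groups r was 0.71 in untreated p53-/-, 0.22 in treated p53-/- and 0.78 in treated p53+/- mice. S1pr1 with Klf2 had r = 0.48 (permutation p = 0.0065, adjusted p = 0.0396) and rho = 0.40 (permutation p = 0.0272, adjusted p = 0.19), r = 0.40 without the 2 farthest, and 0.36, 0.45 and 0.60 within the groups. Ccr9 with Cxcr4 had r = 0.47 (permutation p = 0.00755, adjusted p = 0.0396) and rho = 0.44 (permutation p = 0.0128, adjusted p = 0.134), r = 0.42 without the 2 farthest, and 0.47, 0.64 and 0.58 within the groups. Cxcr4 with Itga4 had r = 0.47 (permutation p = 0.00682, adjusted p = 0.0396) and rho = 0.33 (permutation p = 0.0737, adjusted p = 0.354), r = 0.30 without the 2 farthest, and 0.41, 0.64 and 0.38 within the groups. Within single groups no pair passed after adjustment over its 21 pairs. Without mouse 881 a 5th pair passed, Ccr4 with Ccr7, at r = 0.52 (permutation p = 0.00315, adjusted p = 0.02), against r = 0.40 with it (permutation p = 0.0253, adjusted p = 0.0887). Without biopsy 3 of mouse 869 and biopsy 9 of mouse 908, Ccr7 with Klf2 alone remained past the threshold, at r = 0.68. The other 3 pairs moved little in r while crossing the threshold: S1pr1 with Klf2 was at 0.47 (permutation test, adjusted p = 0.0557), Ccr9 with Cxcr4 at 0.48 (adjusted p = 0.0557) and Cxcr4 with Itga4 at 0.44 (adjusted p = 0.0659).

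Among biopsies of the same tumour, Klf2 and S1pr1 kept pace most closely. After subtracting each tumour's mean, r was 0.82 for S1pr1 with Klf2 over 54 biopsies, 0.66 for Ccr7 with Klf2 and 0.63 for Ccr7 with S1pr1. Without the biopsies of mice 869 and 908 described above these were 0.75, 0.55 and 0.53 over 52 biopsies. Ccr9 with Cxcr4, correlated across mice, had r = 0.16 within tumours, and Ccr4 with Cxcr4, at -0.05 across mice, had -0.54. Biopsies of a tumour share an animal and each pair of values shares a library, so these are descriptions without a test.

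**Figure D5:**
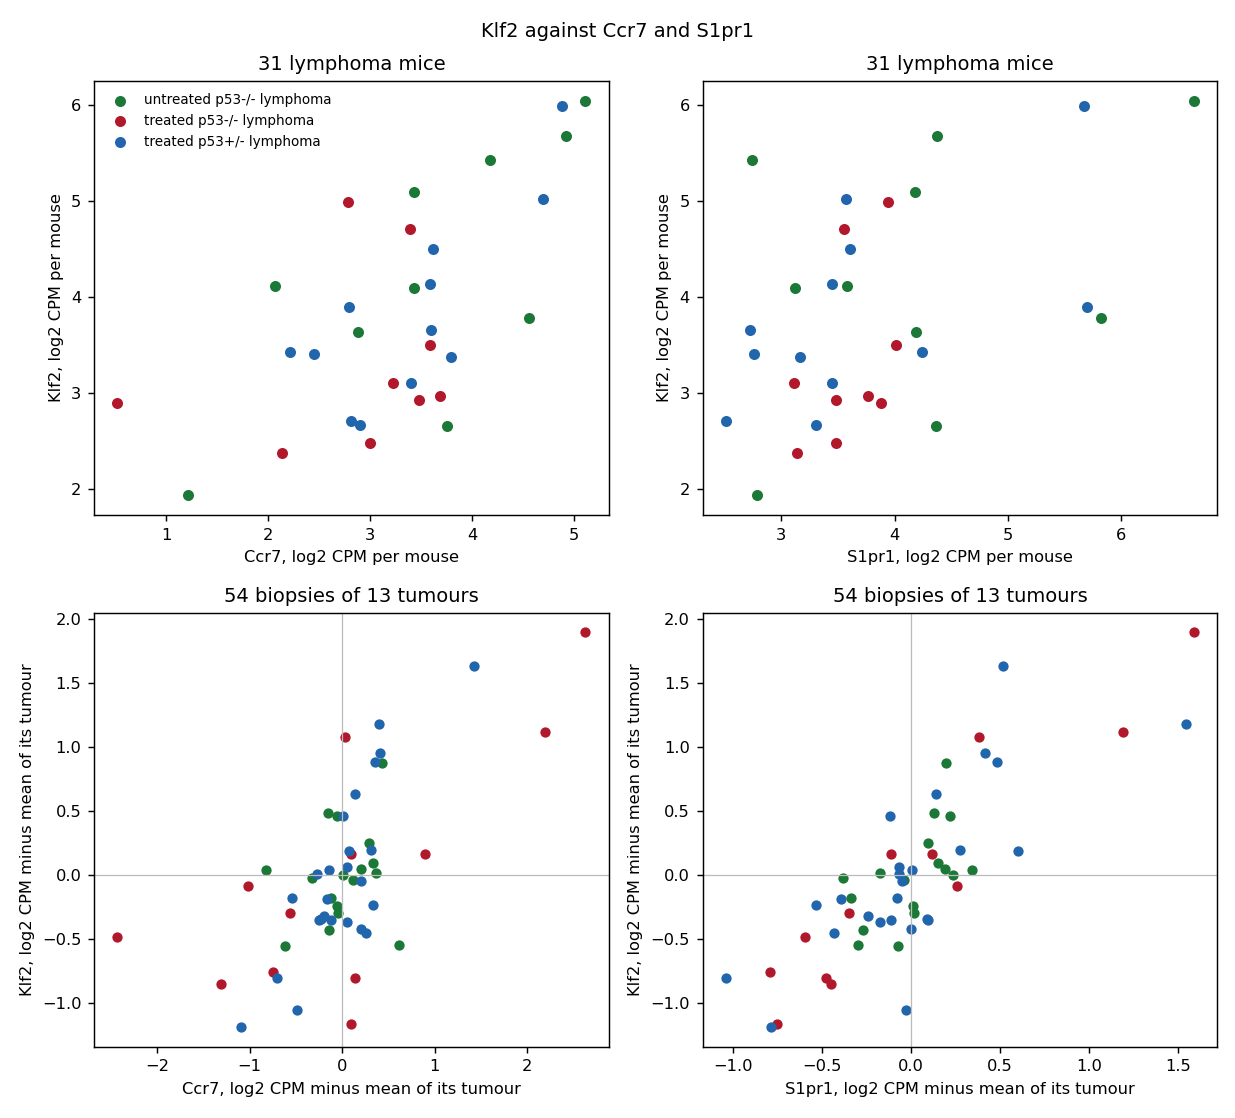
Klf2 against Ccr7 (left) and S1pr1 (right) in log2 CPM: above, 1 point per lymphoma mouse; below, each of 54 biopsies as its difference from the mean of its tumour. The lower right plot, with r = 0.82, is the tightest of the 4, and its upper right points include the biopsies of mice 869 and 908.

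The genes most like each of the 7 were taken as the 3 with the highest r over the 31 lymphoma mice among 11084 genes whose log2 CPM averaged 2 or more. Ccr7 was followed most closely by Tapbp, Shisa5 and Cdc42se1 (0.74, 0.74 and 0.73) and S1pr1 by Vim, Tmem71 and Stx11 (0.70, 0.68 and 0.64). For Klf2 they were Il2rb, Scml4 and Inpp4a (0.73, 0.65 and 0.65), and for Itga4 Gpr157, Il17ra and Syk (0.71, 0.68 and 0.67). Il17ra was also among the 3 for Cxcr4, after Kmt5b and Acbd3 (0.70, 0.67 and 0.63). Ccr9 was nearest to Tmem120b (0.77). Ccr4 was nearest to Ikzf2, Abcb9 and Cd160 (0.72, 0.69 and 0.69), which dropped to 0.59, 0.54 and 0.58 without mouse 881. These r are the highest of many and carry no test.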

How the data were processed

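Bulk RNA-seq of 81 libraries was deposited as 1 table of RSEM expected counts per gene, made by the authors with CASAVA 1.8, fastp, STAR 2.7.2b and RSEM 1.1.17 on mm10, per the submitters' processing notes; the annotation, the strandedness of counting and trimming settings are not given in the sources used here. Of the values 14.25% were not whole; all were rounded, and biopsies were summed per mouse. CPM scales the counts of each library or mouse to the same total. Tests used edgeR 4.0.16 (TMM factors, filterByExpr, quasi-likelihood fit with labelled sex, all groups sharing the spread); DESeq2 1.42.0 and limma 3.58.1 voom were alternatives. Correlations used log2 CPM with a prior count of 2. Gene positions are from GENCODE M21 and promoters from RefSeq. The methods were tested on simulated data. The 7 genes and all lists were chosen with earlier results of these data known, and besides ligands and partner chains, each list gave at most 4 named genes: of those called against normal thymus, the 2 highest and 2 lowest by mean change. Replicates are mice; where the labels name no litter or batch, none was modelled. A few genes that these rules select are not reported here.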

Additional observations from a re-analysis of the deposited data

Results flagged for a closer look

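A value was looked at again where it lay far from the others of its group or tumour by Dixon's gap test at the 95% level. With independent, normally distributed values chance flags about 1 of 20 groups. CPM need not be so distributed, and genes of 1 biopsy share a library, so that rate is a rough guide. Among mice the normal, untreated p53-/- and treated p53-/- groups were tested, and the 12 treated p53+/- mice were not, since the test was applied to at most 10 values. It held in 4 of 21 groups of a gene: Ccr4 was highest in untreated p53-/- mouse 202 at 84.41 CPM, Ccr9 was highest in untreated p53-/- mouse 98 at 661.3 CPM, and normal mouse 387 was highest in both Klf2 (138.1 CPM) and S1pr1 (149.0 CPM). Mouse 202 also had 4246 CPM of mature thymocyte markers and 83.1 of double-positive thymocyte markers, the highest and the lowest of its group.

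Among the biopsies this held in 9 of 91 sets of a gene in a tumour, and 6 of the 9 were biopsy 3 of mouse 869. It was highest of 4 biopsies in Ccr4 (26.91 CPM), Ccr7 (35.05), Itga4 (64.55), Klf2 (18.88) and S1pr1 (32.9), and lowest in Cxcr4 (213.0). Double-negative thymocyte markers summed to 606.1 CPM in it against 55.0 to 87.1 in the other 3. The remaining values were Ccr4 in biopsy 3 of mouse 908 (50.94 CPM, lowest of 4), Ccr7 in biopsy 5 of mouse 899 (14.61 CPM, highest) and Klf2 in biopsy 2 of mouse 884 (11.91 CPM, highest).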

How the results depend on the processing

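Of 609 values under an alternative, 570 kept their direction and side of the threshold. Against normal thymus, treated p53-/- tumours kept 4 genes called throughout. In untreated p53-/- tumours the 1 became 3 with DESeq2 or no scaling factors, 2 without the sex covariate or with single-biopsy tumours, and 5 with voom; there S1pr1 passed at -1.16 (DESeq2), -1.36 (no scaling) and -1.53 (voom), Klf2 at -1.19 (DESeq2, and without sex), -1.34 and -1.58, Itga4 at -1.97 (voom) and -1.54 (single biopsies), and Ccr9 at -3.03 (voom). Ccr9 passed in treated p53-/- tumours at -1.59 (DESeq2) and -1.45 (only the groups compared), and in treated p53+/- at -1.91 (voom). In treated p53+/- tumours the 4 became 2 without mouse 387, and 2 without mice 881 and 387: S1pr1 was at -1.06 in both, Itga4 at -1.44 and -1.46, and at -1.55 without the filter. Cxcr4 passed there at 0.55 (no sex), 0.68 (single biopsies), 0.54 (with the p53+/- normal) and 0.60 (only the groups compared).

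Values that were not called changed sign as follows. Against normal thymus Ccr4 was at -0.081 (voom, untreated p53-/-) and -0.39 (single biopsies, treated p53+/-). Between treated and untreated p53-/- tumours Ccr4 was at 0.52 (voom) and 0.43 (single), and Ccr9 at 0.19 (no sex) and 1.03 (voom). Between treated p53+/- and treated p53-/- tumours Ccr9 was at -0.28 (voom). Between treated p53+/- and untreated p53-/- tumours Ccr4 was at 0.23 (voom), Ccr7 at -0.34 (no sex), -0.20 (single), -0.068 (first biopsy) and -0.0092 (without 881), Ccr9 at 0.35 (no sex), 0.75 (voom) and 0.18 (single), and Klf2 at 0.015 (voom) and 0.10 (only the groups compared). The 4 correlated pairs became 0 within untreated p53-/-, treated p53-/- or treated p53+/- mice and 0 over single-biopsy tumours, all with fewer mice, 3 without TMM factors (S1pr1 with Klf2 at r = 0.44, adjusted permutation p = 0.0735), 5 without mouse 881, and 1 without biopsy 3 of mouse 869 and biopsy 9 of mouse 908, where the other 3 kept r of 0.44 to 0.48. The cause of the other changes was not tested. No gene of the partner lists that was called changed sign under any alternative. Leaving out mouse 387 moved the median gene to 0.21, 0.10 and 0.15. No paired analysis was possible because the numbers in the labels name mice and no number is shared between groups.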

Other observations

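The single normal thymus of a p53+/- mouse, which enters no test, held 713.2 CPM of Ccr9, 302.8 of Itga4 and 38.5 of Ccr4, each above all 8 p53+/+ thymuses. Its Ccr7 (76.4 CPM), S1pr1 (50.7), Klf2 (47.4) and Cxcr4 (241.3) lay within their range.

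Of 6 double-negative thymocyte genes 2, 3 and 4 were called higher in untreated p53-/-, then treated p53-/-, then treated p53+/- tumours by edgeR against normal thymus, beside 23.2%, 25.4% and 25.6% of all genes. Notch1, the receptor that commits cells to the T lineage, and its target Dtx1 were called higher in all 3 comparisons. Of 8 double-positive thymocyte genes 3, 1 and 2 were called lower, beside 17.5%, 26.7% and 25.3% of all genes, so that the counts of the treated groups are at or below the background.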
